A study of Mus musculus with 5 samples.

Results

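The genes described here are 6 listed regulators of fat-cell formation and lipid storage, Cebpa, Cebpb, Cebpd, Pparg, G0s2 and Hsd11b1, read in the stromal cells of injured mouse muscle. They were taken by name from the count tables of all 4 days, and 5 of the 6 had a row among the 18132 genes of those tables; Cebpd was not analysed here. Counts were summed over the cells of each deposited cell-type label and day, with the fibro-adipogenic progenitors (FAPs) first.

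The series profiled live cells sorted from the tibialis anterior, a lower-leg muscle, of C57Bl/6 mice by droplet sequencing, to map muscle cells after injury with notexin, a snake-venom phospholipase that destroys muscle fibres. The groups were uninjured muscle, called day 0 (age 4 months, female), and muscle at day 2 (7 months, female), day 5 (4 months, female) and day 7 (4 months, male) after notexin. The labels name no other allele or agent, and how many animals gave each suspension is not given in the sources used here. There was 1 library for each injured day, and 2 sequencing runs of day 0 that share 1 matrix. Day therefore cannot be told apart from library, from age at day 2 or from sex at day 7, no test between days was possible, and every interval below is a 95% interval of counting error only.

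FAPs are the PDGFRA-positive stromal cells between muscle fibres, and they are the source of the fat cells that can appear in damaged muscle. In the textbook adipogenic cascade, the early transcription factors C/EBP beta and C/EBP delta switch on C/EBP alpha and PPAR gamma, which then hold each other on and drive the genes of the mature fat cell. G0s2 encodes a small protein that blocks the triglyceride lipase ATGL, and Hsd11b1 encodes the enzyme that regenerates active glucocorticoid, a hormone that promotes fat-cell formation, inside the cell. Cebpa, Cebpb and Pparg also act in macrophages, so their place among the cells of an injured muscle is not the stroma alone.

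The matrices held 5176, 4903, 2164 and 5680 labelled cells at days 0, 2, 5 and 7, with medians of 3832.5, 9683, 2018 and 5991 unique molecular identifiers (UMIs, each standing for 1 captured RNA molecule) per cell. Of these, 3516, 667, 828 and 1889 cells carried a FAP label, and the last number joins 1537 cells labelled FAPs with 352 labelled FAPs (activated). Levels are given as counts per 1000000 UMIs (cpm), summed over all cells of a label. The 8 FAP markers together (Pdgfra, Dcn, Lum, Col1a1, Col3a1, Gsn, Ly6a and Pi16) stood at 77546, 24199, 46327 and 57424 cpm in these cells. All 8 were detected on every day, as they were in every other label of days 0 and 2. Cells labelled Tenocytes came near FAPs in this sum at day 0, at 73816 cpm, and the next label of that day stood at 21805. At day 2 the label after FAPs stood at 2515 cpm. Between 9 and 40 cell barcodes were shared by any 2 days.

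Among the members' promoters, 3 stretches are shown, each being the 250 bases before a transcription start in RefSeq (build GRCm38.p6). The first, at chr6:115421816-115422065 on the plus strand, lies before the third of 3 annotated starts of Pparg and is shown for its letters of the type that C/EBP proteins bind. The other 2, at chr1:193242361-193242610 and chr1:193273189-193273438, both on the minus strand, lie before Hsd11b1 and G0s2. These 2 genes are direct neighbours among the protein-coding genes of chromosome 1 and were found below in the same FAPs. Whether any of the 3 windows has a part in the levels below was not tested. The start used for Hsd11b1 is the one in the promoter table and lies inside the annotated span of the gene. Capitals mark matches to TTGCNNAA or its reverse complement TTNNGCAA.
Pparg: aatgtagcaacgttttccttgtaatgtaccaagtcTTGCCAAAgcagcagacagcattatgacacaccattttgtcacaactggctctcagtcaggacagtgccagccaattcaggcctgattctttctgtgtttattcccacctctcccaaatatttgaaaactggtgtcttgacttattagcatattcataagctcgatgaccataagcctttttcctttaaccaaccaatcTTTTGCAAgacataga
Hsd11b1: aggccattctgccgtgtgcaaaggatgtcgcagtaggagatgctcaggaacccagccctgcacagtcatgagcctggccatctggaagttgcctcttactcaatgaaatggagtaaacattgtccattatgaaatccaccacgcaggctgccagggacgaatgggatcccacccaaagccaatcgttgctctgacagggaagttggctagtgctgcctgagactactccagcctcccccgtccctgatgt
G0s2: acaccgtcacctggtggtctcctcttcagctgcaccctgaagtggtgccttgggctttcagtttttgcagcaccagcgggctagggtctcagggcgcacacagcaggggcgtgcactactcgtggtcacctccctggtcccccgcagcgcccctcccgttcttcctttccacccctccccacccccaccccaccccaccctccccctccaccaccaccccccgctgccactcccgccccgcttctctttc
The Pparg window held 2 matches, TTGCCAAA beginning 215 bases before the start and TTTTGCAA beginning 16 bases before it. At least 1 such match was present in 9.56% of 32851 windows of this length and at least 2 in 0.572%. The windows before Hsd11b1, G0s2, Cebpa and Cebpb and before the other 2 starts of Pparg held none. None of the 7 windows held the cyclic AMP element TGACGTCA, the glucocorticoid-receptor palindrome or the direct-repeat element of PPARs, searched on both strands, which occurred in 1.55%, 0.387% and 0.0335% of all windows. A match is a description of letters, and the 3' counts do not tell which of the Pparg starts was used.

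Cebpb, the early C/EBP factor, was lower in FAPs on all 3 injured days than in uninjured muscle. Day 0 gave 641 cpm (interval 628 to 653, 10468 UMIs), day 2 gave 155 (147 to 163), day 5 gave 255 (237 to 274) and day 7 gave 213 (205 to 221). The injured days lay between 155 and 255 cpm, all below day 0, and their intervals did not touch that of day 0. On the log2 scale the differences of days 2, 5 and 7 from day 0 were -2.05 (-2.13 to -1.97), -1.33 (-1.44 to -1.22) and -1.59 (-1.65 to -1.53), so that the day 2 level was 4.13-fold lower.

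Hsd11b1, the glucocorticoid-regenerating enzyme, was also lower on every injured day and hardly differed among them. Its level at days 0, 2, 5 and 7 was 205 cpm (198 to 212, 3342 UMIs), 54.0 (49.3 to 58.9), 54.2 (46.1 to 63.3) and 63.5 (59.5 to 67.7). The log2 differences from day 0 were -1.92 (-2.06 to -1.79), -1.92 (-2.16 to -1.69) and -1.69 (-1.79 to -1.58) at days 2, 5 and 7. Day 5 against day 2 was 0.0054 (-0.26 to 0.27).

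G0s2, the ATGL inhibitor, was lowest at day 2 and nearer to the uninjured level later. At days 0, 2, 5 and 7 the values were 118 cpm (113 to 124, 1933 UMIs), 42.4 (38.3 to 46.8), 63.1 (54.3 to 72.9) and 76.5 (72.0 to 81.1). These gave log2 differences from day 0 of -1.48 (-1.64 to -1.32), -0.91 (-1.13 to -0.69) and -0.63 (-0.74 to -0.52). Only the day 2 difference passed 2-fold.

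Cebpa and Pparg, the 2 later factors of the cascade, had another profile: both were highest at day 2. Cebpa stood at 17.3 cpm (15.3 to 19.4, 282 UMIs) at day 0, 63.2 (58.2 to 68.6, 582 UMIs) at day 2, 11.0 (7.50 to 15.5, 32 UMIs) at day 5 and 18.7 (16.5 to 21.1, 270 UMIs) at day 7. Pparg was scarce throughout, at 2.75 cpm (2.01 to 3.69, 45 UMIs) at day 0, 12.9 (10.7 to 15.5, 119 UMIs) at day 2, 1.37 (0.374 to 3.51, 4 UMIs) at day 5 and 4.02 (3.05 to 5.20, 58 UMIs) at day 7. For both genes the day 2 interval lay above those of the other 3 days. Against day 0, Cebpa differed on the log2 scale by 1.87 (1.67 to 2.08), -0.65 (-1.23 to -0.12) and 0.12 (-0.13 to 0.36) at days 2, 5 and 7. The same differences for Pparg were 2.23 (1.72 to 2.76), -1.01 (-2.94 to 0.45) and 0.55 (-0.04 to 1.14), and the day 5 value rests on 4 UMIs and has 0 inside its interval.

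**Figure D1:**
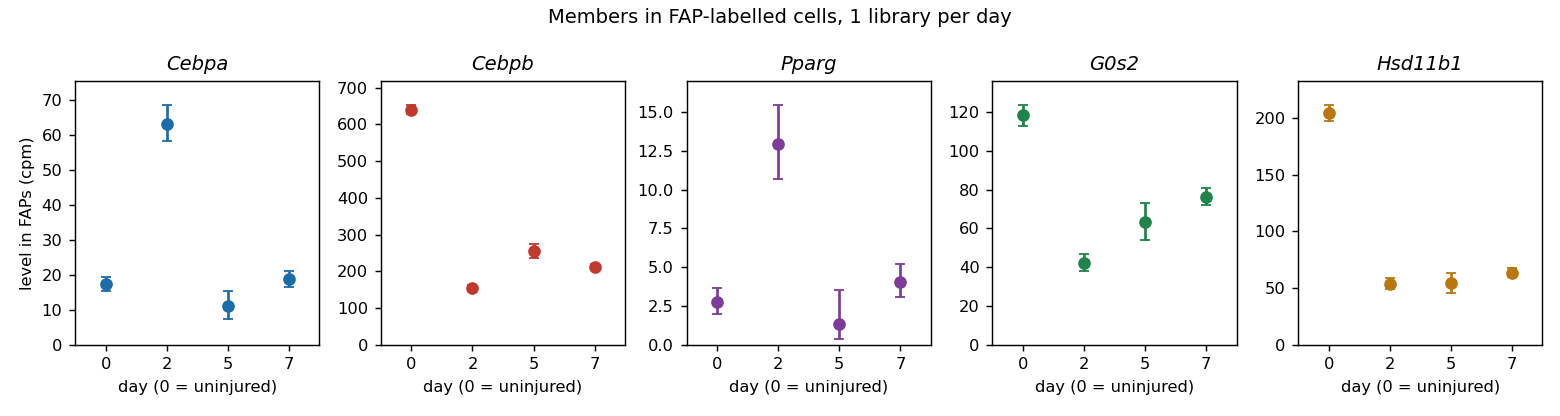
Level of each member (cpm, linear axis from 0) in FAP-labelled cells of the 1 library of each day, with exact Poisson 95% intervals as bars. Cebpb, G0s2 and Hsd11b1 were highest at day 0, at 641, 118 and 205 cpm, and Cebpa and Pparg were highest at day 2, at 63.2 and 12.9 cpm.

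A gene was called different when its levels on 2 days differed by more than 2-fold, among genes with at least 20 UMIs over both days. At day 2 against day 0 all 5 measured members were called, 2 higher and 3 lower, where 24.7% of 12943 genes were called, 10.8% higher and 13.9% lower. At day 5, 3 of 5 were called, all lower (Cebpb, Hsd11b1 and the thinly counted Pparg), where 20.5% of 12289 genes were called, 10.3% higher and 10.2% lower, and the call of Pparg was lost under 3 of the alternative settings given in the closing section. At day 7, 2 of 5 were called, both lower (Cebpb and Hsd11b1), where 20.5% of 13188 genes were called, 9.89% higher and 10.6% lower. The 3 comparisons share the day 0 cells. The median over all genes was -0.17, -0.0063 and -0.081 on the log2 scale at days 2, 5 and 7.

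**Figure D2:**
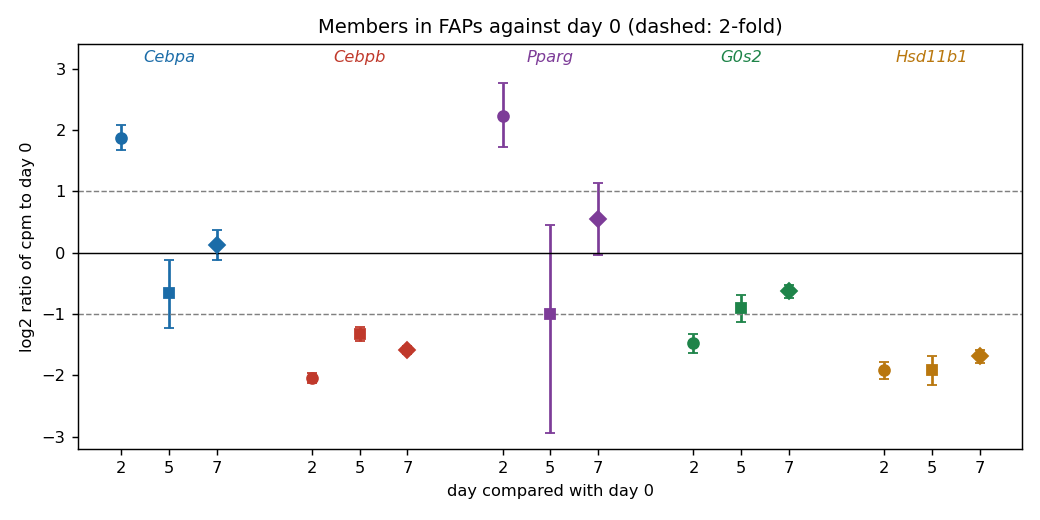
Log2 ratio of each member's cpm in FAPs at days 2, 5 and 7 against day 0, with the 95% interval from the 2 counts as bars and 2-fold as dashed lines. The values of Hsd11b1 lay close together at -1.92, -1.92 and -1.69, whereas those of Cebpa were 1.87, -0.65 and 0.12.

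The FAPs of day 2 also carried more macrophage RNA than those of the other days. The 12 myeloid markers summed to 77.5, 2998, 360 and 1533 cpm in FAPs at days 0, 2, 5 and 7, all 12 being detected on each day, and at day 2 every one of the 667 FAPs had a UMI of Lyz2, C1qa, C1qb, C1qc or Tyrobp. Since Cebpa, Pparg and Cebpb are expressed by macrophages, the level each would reach from such RNA was set beside its measured level. The 5 myeloid genes named above stood in FAPs at 0.393%, 8.69%, 1.88% and 3.23% of their level in the largest myeloid label of the day, at the largest of the 5 rates. At those rates myeloid RNA would give 0.262, 20.4, 1.88 and 5.83 cpm of Cebpa at days 0, 2, 5 and 7, beside the measured 17.3, 63.2, 11.0 and 18.7 cpm. For Pparg the values would be 0.0377, 2.58, 0.443 and 1.28 cpm, against 2.75, 12.9, 1.37 and 4.02 measured.

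The day 2 FAPs were also divided at the median of their share of UMIs from the 5 myeloid genes. In the 334 FAPs at or below the median myeloid share, Cebpa stood at 60.1 cpm (53.3 to 67.5), Pparg at 11.9 (8.99 to 15.4) and Cebpb at 138 (127 to 149). In the 333 above it, where the 5 myeloid genes summed to 3808 cpm against 1271 in the others, Cebpa stood at 66.4 (59.1 to 74.4), Pparg at 14.0 (10.8 to 17.9) and Cebpb at 173 (161 to 186). The intervals of the 2 parts overlapped for Cebpa, Pparg and G0s2 and lay apart for Cebpb and Hsd11b1. Hsd11b1, at 1.00 cpm in Immune cells of day 2, stood at 64.4 cpm (57.3 to 72.0) in the first part and 43.1 (37.3 to 49.6) in the second. At day 7 the intervals of Cebpa lay apart, at 13.7 cpm (11.1 to 16.6) at or below the median myeloid share and 23.9 (20.4 to 27.8) above it. Muscle stem cells (MuSCs) and progenitors also gave UMIs of Cebpa, at 16.6 cpm (11.1 to 23.9) at day 2 and 29.6 (23.6 to 36.7) at day 7. The part of macrophage RNA in the day 2 levels was not tested beyond these values.

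**Figure D3:**
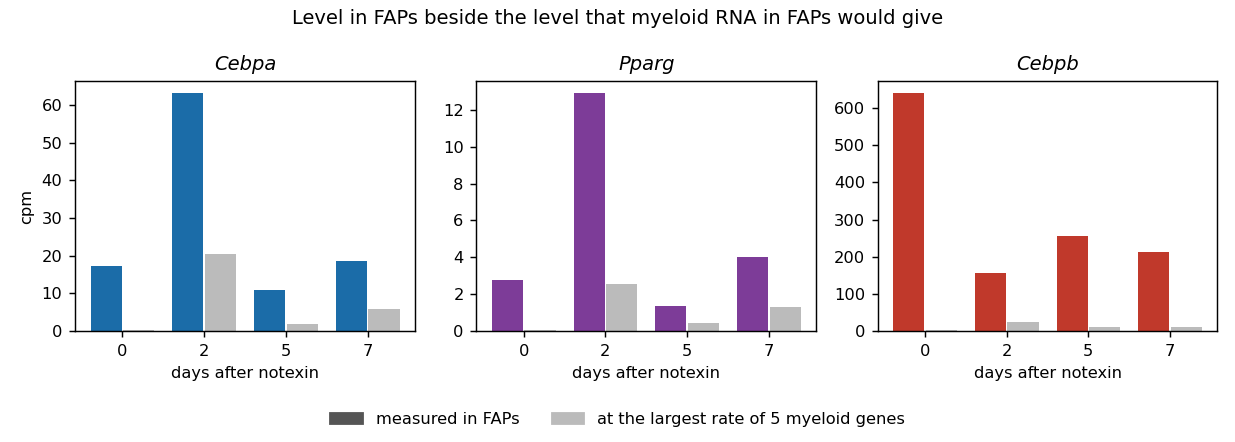
Measured level of Cebpa, Pparg and Cebpb in FAPs (coloured bars, cpm from 0) beside the level that myeloid RNA would give at the largest rate of 5 myeloid genes (grey bars), by day. At day 2 the pair was 63.2 and 20.4 cpm for Cebpa, 12.9 and 2.58 for Pparg, and 155 and 24.0 for Cebpb.

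Cebpb responds fast to stress, and genes known to be switched on by tissue dissociation also differed between days. The 13 dissociation markers (Fos, Jun, Egr1 and others) summed to 13690, 6008, 12768 and 10394 cpm in FAPs at days 0, 2, 5 and 7, all 13 being detected on each day. Day 0 was highest and day 2 lowest in this sum, as in Cebpb, but at day 5 the sum was near that of day 0 while Cebpb was 2.51-fold lower. Their part in the Cebpb difference was not tested.

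Within the uninjured stroma, G0s2 and Hsd11b1 were higher in 1 of 2 FAP subsets than in the other. Resting FAPs divide into cells with Pi16 or Dpp4, a progenitor-like state, and cells with Smoc2 or Cxcl14, and every FAP was first thinned to 1000 UMIs so that depth was equal. At day 0, 986 of 3516 FAPs (28.0%) had a UMI of Smoc2 or Cxcl14 alone, 1248 (35.5%) of Pi16 or Dpp4 alone, 1001 of both and 281 of neither. Hsd11b1 stood at 416 cpm (377 to 458) in Smoc2 or Cxcl14 cells and 38.5 cpm (28.4 to 51.0) in Pi16 or Dpp4 cells, a 10.8-fold difference. G0s2 stood at 242 cpm (213 to 275) in the first and 17.6 (11.0 to 26.7) in the second, a 13.8-fold difference. The intervals of the 2 subsets lay apart for both genes. Cells with UMIs of both marker pairs lay between the subsets, at 280 cpm of Hsd11b1 and 156 of G0s2, and cells with neither had 53.4 cpm of Hsd11b1 and 107 of G0s2.

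The transcription factors were divided less sharply between these cells. Cebpa stood at 27.4 cpm (18.0 to 39.8, 27 UMIs) in Smoc2 or Cxcl14 cells and 10.4 (5.55 to 17.8, 13 UMIs) in Pi16 or Dpp4 cells, a log2 difference of 1.39 (0.39 to 2.47). Cebpb leaned the other way, at 565 cpm (519 to 614) in Smoc2 or Cxcl14 cells and 716 (669 to 764) in Pi16 or Dpp4 cells, a log2 difference of -0.34 (-0.50 to -0.19). Pparg had 2 and 3 UMIs in the thinned cells of these subsets, too few to compare.

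The subsets differed in size from day to day, so the injury differences were read within them. Smoc2 or Cxcl14 cells made up 28.0% of FAPs at day 0, 53.5% at day 2, 40.0% at day 5 and 55.6% at day 7, and Pi16 or Dpp4 cells 35.5%, 5.40%, 20.4% and 13.1%, shares that also move when the marker genes themselves change. Within Smoc2 or Cxcl14 cells Hsd11b1 stood at 416, 89.6, 109 and 101 cpm at days 0, 2, 5 and 7, which are log2 differences from day 0 of -2.21 (-2.78 to -1.69), -1.94 (-2.47 to -1.44) and -2.04 (-2.37 to -1.73). G0s2 in the same cells was at 242, 42.0, 103 and 110 cpm, with log2 differences from day 0 of -2.53 (-3.39 to -1.78), -1.24 (-1.80 to -0.72) and -1.13 (-1.47 to -0.81). Both genes were thus lower on each injured day inside this subset, and the G0s2 differences of days 5 and 7, which were under 2-fold over all FAPs, passed 2-fold there. In Pi16 or Dpp4 cells G0s2 was instead at 17.6, 27.8, 35.5 and 28.2 cpm at days 0, 2, 5 and 7, from 22, 1, 6 and 7 UMIs, with 0 inside the interval of each difference.

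Cebpb was lower on the injured days in both subsets. In Smoc2 or Cxcl14 cells its log2 difference from day 0 was -1.82 (-2.24 to -1.43), -0.87 (-1.19 to -0.57) and -1.52 (-1.76 to -1.29) at days 2, 5 and 7. In Pi16 or Dpp4 cells the values of days 5 and 7 were -1.67 (-2.18 to -1.20) and -1.86 (-2.30 to -1.44), while the 36 such cells of day 2 held 2 UMIs. The higher Cebpa of day 2 did not pass 2-fold inside Smoc2 or Cxcl14 cells: the log2 difference from day 0 was 0.52, from 14 UMIs at day 2 and 27 at day 0, with 0 inside its interval. Over all FAPs thinned to the same depth it was 1.51. Pi16 or Dpp4 cells held 2 UMIs of Cebpa at day 2, too few to compare. Cells with neither marker pair made up 246 of 667 FAPs (36.9%) at day 2, against 7.99% at day 0. In them Cebpa stood at 65.0 cpm (37.2 to 106, 16 UMIs) at day 2 and 32.0 (14.6 to 60.8, 9 UMIs) at day 0. The contrast between subsets was still present for Hsd11b1 at day 7, with 106 UMIs in 1051 Smoc2 or Cxcl14 cells and 1 UMI in 248 Pi16 or Dpp4 cells, or 101 against 4.03 cpm. For G0s2 it was smaller than at day 0, at 110 against 28.2 cpm and a log2 difference of 1.97 (0.88 to 3.31), whose interval overlaps that of day 0 (3.15 to 4.48).

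**Figure D4:**
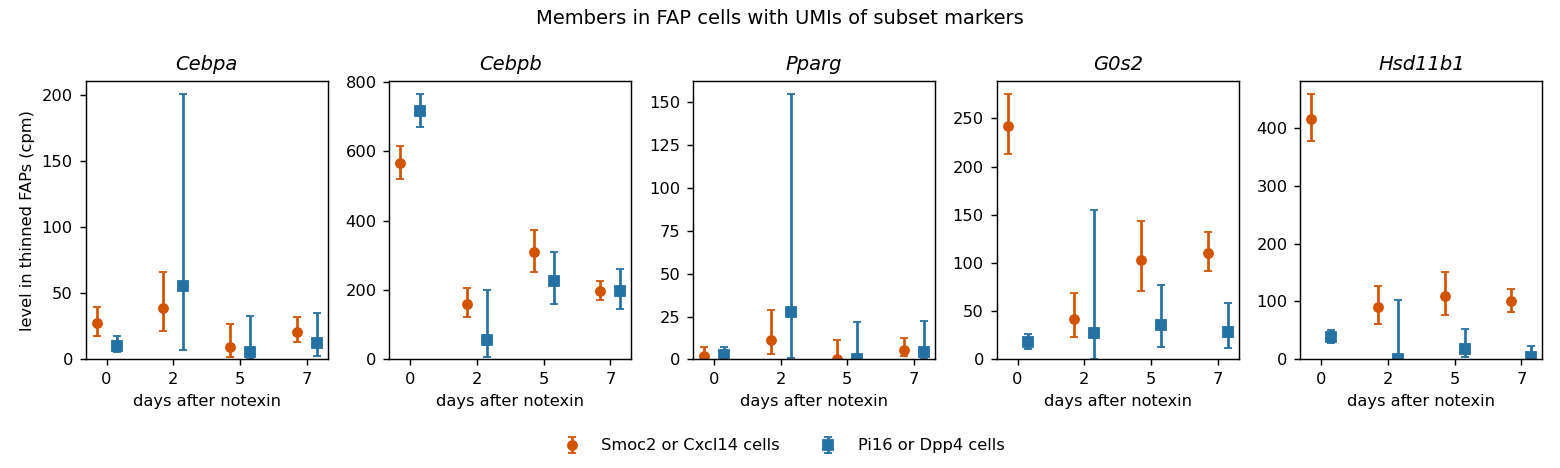
Level of each member (cpm, linear axis from 0) in thinned FAPs with a UMI of Smoc2 or Cxcl14 alone (circles) or of Pi16 or Dpp4 alone (squares), by day, with exact Poisson 95% intervals. At day 0 Hsd11b1 stood at 416 cpm in the first and 38.5 in the second, and G0s2 at 242 and 17.6.

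G0s2 and Hsd11b1 were also found in the same single FAPs. Among thinned FAPs of day 0, 124 of the 349 cells with a G0s2 UMI also had one of Hsd11b1 (35.5%), against 12.3% of the cells with no G0s2 UMI. At days 2, 5 and 7 the shares were 25.0%, 15% and 15.2% of G0s2 cells (20, 60 and 145 cells), against 5.41%, 6.12% and 4.59% of the rest. The sharing was also seen inside the Smoc2 or Cxcl14 subset, where at day 0 the share was 41.0% (75 of 183 cells) against 23.3%, and at day 7 17.1% (18 of 105 cells) against 6.24%. Among protein-coding genes the 2 lie next to each other on chromosome 1, G0s2 at 193272160 to 193273188 and Hsd11b1 at 193221640 to 193264045 (GRCm38.p6). Between them are 8114 bp with no annotated protein-coding gene, and other gene types were not searched. Cebpa (chromosome 7, 35119293 to 35121928), Cebpb (chromosome 2, 167688915 to 167690432) and Pparg (chromosome 6, 115360879 to 115490404) lie apart. Pparg was not seen with Cebpa in any of the 61 day 0 cells that had a Cebpa UMI, at a depth where 12 of 3516 FAPs had one of Pparg.

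The 2 FAP labels of day 7 come from 1 library, and they differed in these genes. FAPs (activated) had more Cebpb, at 347 cpm (323 to 373), against 190 (182 to 198) in the cells labelled FAPs, a log2 difference of 0.87 (0.75 to 0.99). They had less G0s2, at 27.9 cpm (21.3 to 36.0) against 84.8 (79.7 to 90.1), a log2 difference of -1.60 (-2.01 to -1.22). Hsd11b1 stood at 43.5 cpm (35.1 to 53.4) in FAPs (activated) and 66.9 (62.4 to 71.7) in FAPs, and Cebpa at 12.8 (8.42 to 18.6) and 19.7 (17.3 to 22.4). Pparg stood at 7.10 cpm (3.97 to 11.7, 15 UMIs) in FAPs (activated) and 3.49 (2.53 to 4.70, 43 UMIs) in FAPs.

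Between these labels G0s2 was called lower and Pparg higher, where 20% of 11924 genes were called, 5.57% higher and 14.4% lower. The labels also differed in subset: 50.9% of FAPs (activated) but 4.49% of FAPs were Pi16 or Dpp4 cells, and 19.9% against 63.8% were Smoc2 or Cxcl14 cells. The myeloid sum was 1683 cpm in FAPs (activated) and 1507 in FAPs, and the dissociation sum 10491 and 10377. Without FAPs (activated), the day 7 differences from day 0 kept their direction in all 5 members.

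FAPs held most of the UMIs of G0s2 and Hsd11b1 on every day, most of those of Cebpa and Cebpb at day 0 only, and never most of those of Pparg. Of all Hsd11b1 UMIs, FAPs gave 96.6%, 89.4%, 77.8% and 75.1% at days 0, 2, 5 and 7, and of all G0s2 UMIs 82.3%, 87.1%, 82.1% and 75.8%. FAPs gave 73.2%, 16.0%, 48.7% and 35.7% of all UMIs on those days. The FAP part of Cebpb was 82.8%, 10.4%, 38.7% and 31.9%, and that of Cebpa 63.2%, 5.46%, 18.3% and 8.51%. For Pparg it was 20%, 8.20%, 9.76% and 7.30%, and at day 0 endothelial cells held 66.2% of its UMIs.

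Hsd11b1 was highest in FAPs among the labels of days 0, 2 and 5 and second at day 7. At day 0 the next labels were Immune at 29.9 cpm (22.2 to 39.5) and Tenocytes at 26.9 (13.4 to 48.1), which did not differ beyond their intervals. At day 2 no other label passed 3.47 cpm. At day 5 NK cells followed FAPs at 36.0 cpm (20.6 to 58.5), with overlapping intervals, and at day 7 NK/T cells were above FAPs at 97.6 cpm (85.0 to 112, 214 UMIs). Endothelial cells, the lining of blood vessels, gave another low series, with 15.1 cpm at day 0 and 1.02 cpm at day 7, from 3 UMIs. Days 2 and 5 held 0 UMIs, with intervals up to 7.03 and 21.4 cpm, so that of day 5 holds the day 0 level.

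G0s2 was spread over stromal and muscle labels and, at day 0, was also found in Immune cells. At day 0 the cells labelled Neural/Glial/Schwann cells (399 cpm, 331 to 475) and Smooth muscle cells (288 cpm, 229 to 358) were above FAPs, and Immune cells were below them at 89.2 cpm (75.5 to 105). In the first of these labels 4 glial genes summed to 2835 cpm, against 28.1 cpm or less in the other labels of day 0. The 5 mature muscle genes summed to 38256 cpm in it, so its cells carried muscle RNA beside glial RNA. At day 2 FAPs were highest, at 42.4 cpm, and MuSCs and progenitors followed at 6.31. At day 5 Mature skeletal muscle (91.7 cpm, 50.1 to 154, 14 UMIs) and FAPs (63.1 cpm, 54.3 to 72.9) had overlapping intervals. At day 7 FAPs (84.8), MuSCs and progenitors (84.6) and Mature skeletal muscle (66.6) had overlapping intervals, and the macrophage labels stayed at or under 2.98 cpm.

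Cebpb was highest in immune or macrophage labels on each day, with FAPs second at days 0 and 5. Immune cells stood at 801 cpm (758 to 845) at day 0 and 276 (271 to 281) at day 2, and Anti-inflammatory macrophages at 629 (588 to 673) at day 5. At day 7 Anti-inflammatory macrophages (353 cpm, 343 to 362) and FAPs (activated) (347 cpm, 323 to 373) did not differ beyond their intervals. Endothelial cells differed from day 0 by -0.62 (-1.07 to -0.21), -1.02 (-1.94 to -0.23) and -1.44 (-1.71 to -1.18) at days 2, 5 and 7 on the log2 scale, where the median gene of these cells was at -0.30, -0.15 and -0.11, so the interval of day 2 holds the median. Of the genes tested in these cells, 21%, 22.9% and 9.97% were past 2-fold lower. The endothelial cells of day 2 had a myeloid sum of 11571 cpm, against 172 at day 0. The part of that RNA in their Cebpb level was not tested.

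Cebpa, which is also a factor of myeloid differentiation, was highest in myeloid labels throughout. It stood at 66.5 cpm (54.7 to 80.1) in Immune cells at day 0 and 235 (230 to 240) at day 2, and at 100 (84.3 to 119) and 181 (174 to 188) in Anti-inflammatory macrophages at days 5 and 7. FAPs were the fourth of 7 labels at day 0 and the fourth of 6 at day 2. At day 0 their interval overlapped those of Tenocytes (13.4 to 48.1 cpm, 11 UMIs) and of cells labelled Platelets (13.3 to 68.0 cpm, 7 UMIs). The Platelets interval also overlapped that of Immune cells. At day 2 the interval of FAPs overlapped that of endothelial cells. Endothelial cells had 72.4 cpm (51.2 to 99.4, 38 UMIs) at day 2, against 10.3 (7.05 to 14.6) at day 0, a log2 difference of 2.81 (2.09 to 3.54), and those 58 cells had a myeloid sum of 11571 cpm beside an endothelial sum of 3728. Cells labelled B cells at day 2 had 41.6 cpm of Cebpa, but their 3 B-cell markers summed to 1.83 cpm and their myeloid markers to 4868.

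Pparg, a regulator of fatty acid handling in vessels and macrophages too, was highest in endothelial or macrophage labels on each day. In endothelial cells days 0, 2 and 7 gave 48.0 cpm (40.6 to 56.4), 41.9 (26.3 to 63.5) and 41.2 (34.2 to 49.3), day 5 held 1 UMI, and days 2 and 7 did not differ from day 0 beyond their intervals. The endothelial cells of day 2 had a myeloid sum of 11571 cpm, whose part in their Pparg level was not tested. Immune cells of day 2 stood at 29.7 cpm (28.0 to 31.4), and Anti-inflammatory macrophages at 23.6 (16.2 to 33.4) at day 5 and 39.6 (36.5 to 43.0) at day 7. FAPs, at 1.37 to 12.9 cpm, lay below these labels on every day except day 5 for endothelial cells, where both intervals were wide.

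**Figure D5:**
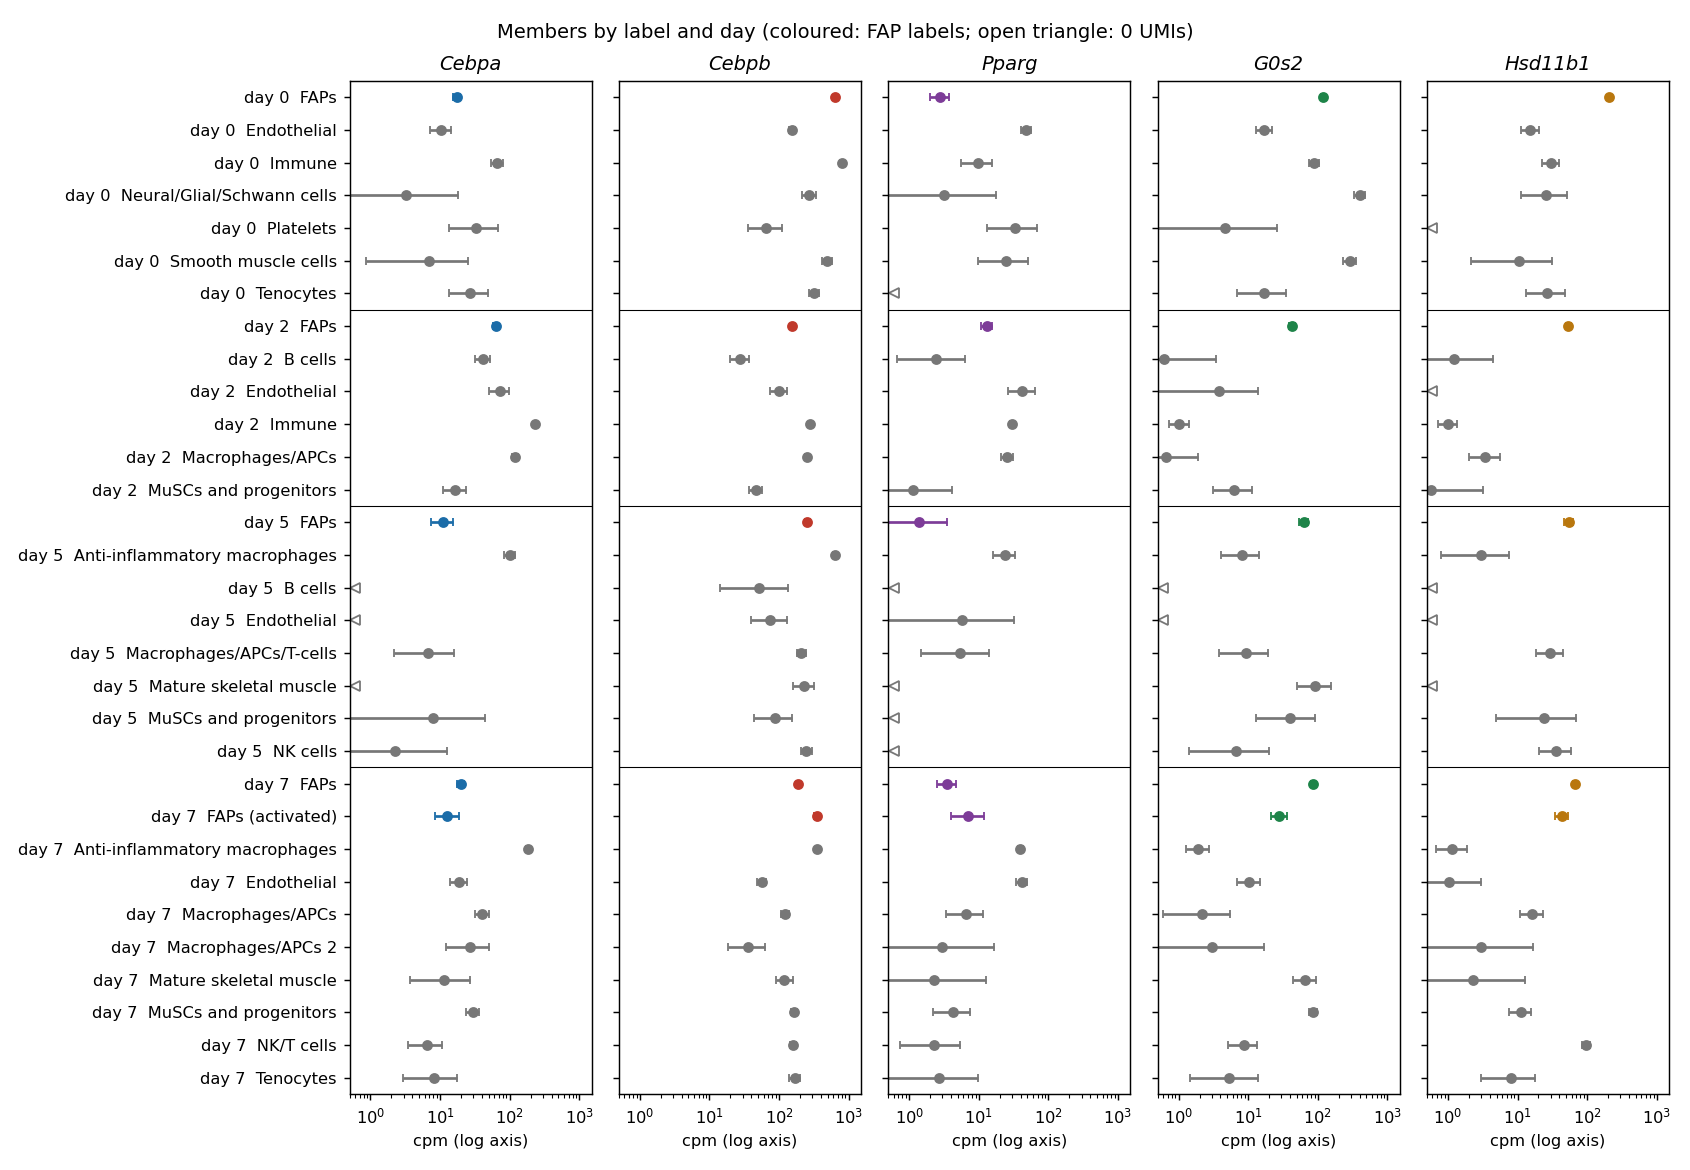
Level of each member (cpm, log axis) in every label and day with at least 20 cells, with exact Poisson 95% intervals, FAP labels coloured and open triangles for 0 UMIs. Hsd11b1 stands apart in FAPs at days 0 and 2, at 205 and 54.0 cpm, while the highest Cebpa values are those of Immune cells at day 2, at 235 cpm, and of Anti-inflammatory macrophages at day 7, at 181 cpm.

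Across 29 groups of a label and a day with at least 50 cells, the genes most alike to each member were found among 6943 genes by Pearson's r of log2(cpm + 10), as a description with groups that share libraries. For Hsd11b1 they were Thy1 (0.87), a surface protein of stromal and T cells, Prkca (0.84) and Phlda1 (0.77). For G0s2 they included Fxyd1 (0.86) and Fhl1 (0.82). Cebpa was most like Hpse, P2ry6 and Tmem106a (0.90 each), Pparg like Abi3 (0.85), Rab5c (0.83) and Stab1 (0.83), and Cebpb like Zfp703 (0.75), Qpct (0.73) and Maf (0.70). Among the members themselves r was 0.56 for Cebpa with Pparg, 0.44 for G0s2 with Hsd11b1, 0.48 for Cebpb with G0s2, 0.47 for Cebpb with Hsd11b1, 0.14 for Cebpa with Cebpb and 0.05 for Cebpb with Pparg. It was negative for Hsd11b1 with Pparg (-0.40), Cebpa with G0s2 (-0.37), Cebpa with Hsd11b1 (-0.27) and G0s2 with Pparg (-0.25).

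The other genes of the adipogenic programme were read from 6 lists. Over all genes tested in FAPs, 10.8%, 10.3% and 9.89% were past 2-fold higher at days 2, 5 and 7. The shares past 2-fold lower were 13.9%, 10.2% and 10.6%. Of the 13 early activators, 5 were lower and 0 higher by 2-fold in FAPs at day 2, with a median of -0.57 on the log2 scale, against -0.17 for all genes. The lowest were Klf4 (242 cpm at day 2, against 951 at day 0), Klf5 (5.21 against 17.0 cpm) and Srebf1 (17.2 against 51.1 cpm), the last a regulator of fatty acid synthesis. At day 5, 3 were lower and 1 higher, with Klf5 at 1.37 cpm (4 UMIs) against 17.0 and Egr2 at 93.3 against 32.9. At day 7, 2 were lower and 0 higher (Srebf1 at -1.66 and Klf5 at -1.56 on the log2 scale), and the median was -0.83.

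Inhibitors of adipogenesis were called in both directions. Of 11 tested, 5 were lower and 0 higher at day 2, 2 lower and 3 higher at day 5, and 3 lower and 1 higher at day 7, with medians of -0.76, -0.36 and -0.57. Dlk1 (Pref-1), which holds preadipocytes undifferentiated, stood at 17.2, 58.3 and 107 cpm at days 0, 5 and 7, log2 differences from day 0 of 1.76 (1.48 to 2.04) and 2.63 (2.45 to 2.82). Wnt10b, an anti-adipogenic Wnt ligand, stood at 5.94, 0.652, 1.71 and 0.485 cpm at days 0, 2, 5 and 7. Gata3 was higher at day 5 (86.7 against 27.7 cpm) and lower at day 7 (8.73 against 27.7 cpm).

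Markers of the mature fat cell were near 0 in the FAPs of every day. The 5 adipocyte markers (Adipoq, Plin1, Cidec, Lep and Retn) summed to 1.96, 2.93, 4.46 and 1.04 cpm at days 0, 2, 5 and 7, with 2, 3, 1 and 2 of the 5 having a UMI in FAPs. In the longer list of 24 adipocyte genes, 16 were tested at day 2, of which 4 were higher and 5 lower, 15 at day 5, with 2 and 3, and 16 at day 7, with 2 and 7. After thinning to equal depth these calls were 3 higher and 1 lower at day 2 and 2 and 2 at day 7. The highest at day 2 was Fabp5, a fatty acid carrier that macrophages also express, at 499 cpm against 20.4 at day 0, a log2 difference of 4.61 (4.45 to 4.78); the part in it of the 2998 cpm of myeloid markers was not tested. Car3 (2.33) and Cd36 (1.35) followed, and the lowest at day 2 were the glucose transporter Slc2a4 (-1.42, from 4 UMIs against 19), Fabp4 (-1.26) and Scd1 (-1.13).

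The lipid droplet list, read beside G0s2, is set against 24.7%, 20.5% and 20.5% of all genes called at days 2, 5 and 7. Of 10 tested genes, 1 was higher and 1 lower at day 2, 0 higher and 1 lower at day 5, and 1 higher and 1 lower at day 7. Mgll, the lipase that splits monoglycerides, was the lower one each time, at 63.7, 5.65, 21.6 and 7.76 cpm at days 0, 2, 5 and 7. The higher ones were Plin2, a droplet coat protein, at 124 cpm at day 2 against 57.0 at day 0, and Hilpda, which like G0s2 inhibits ATGL, at 47.0 cpm at day 7 against 21.4. Among the other CEBP and PPAR family genes 0 of 10 were called at day 2, 1 of 9 at day 5 and 1 of 10 at day 7. The called gene was Ppargc1b, higher, both times.

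Among 16 genes of glucocorticoid action, 3 were higher and 5 lower at day 2, 0 and 2 at day 5, and 1 and 4 at day 7, with medians of -0.57, -0.05 and -0.68. Hsd11b2, which inactivates the hormone that Hsd11b1 regenerates, was scarce but higher at days 2 and 7. It stood at 1.59 (26 UMIs), 6.73 (62 UMIs) and 19.0 cpm (274 UMIs) at days 0, 2 and 7. At day 5, where 0 of the 16 genes were called higher, Hsd11b2 did not pass 2-fold higher. H6pd, which supplies the cofactor of Hsd11b1, stood at 28.6 cpm at day 2 against 13.5, a log2 difference of 1.08 (0.81 to 1.34). The receptor gene Nr3c1 stood at 55.6 cpm at day 2 against 177, or -1.67 (-1.81 to -1.53). Targets of the receptor were called in both directions: at day 2 Fkbp5 was higher (1.42) and Zbtb16 lower (-1.33), and at day 7 Zbtb16 (-2.24) and Mt2 (-1.29) were lower.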

How the data were processed

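Per the labels, live cells of the tibialis anterior were sorted by flow cytometry and sequenced as 10x 3' v2 libraries. The submitters' processing notes list R 3.6.2, Seurat 2.3.4 and Cell Ranger 2 as tools and mm10 as build, with no role or order. The raw tables deposited by the authors hold UMI counts per gene and barcode, listing genes seen in at least 3 barcodes. The normalized tables deposited by the authors hold a natural log: each count was scaled to 10000 per cell and 1 was added before the log, which the raw counts gave back to within 6.22e-15. Metadata deposited by the authors hold a cell-type label and, as a fraction, the mitochondrial part of each cell; 12 other columns were not used. Barcodes without a label (14, 21, 13 and 9 at days 0, 2, 5 and 7) were left out.

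Counts were summed over the cells of a label and day and divided by all UMIs of those cells, as cpm, with exact Poisson intervals; shares of cells have exact binomial (Clopper-Pearson) intervals at 95%. Ratios between sums carry the Clopper-Pearson interval of the 2 counts, and a gene was called past 2-fold when it had at least 20 UMIs over both groups and was listed on both days. Intervals cover counting error only. Cells were thinned to 1000 UMIs (seed 1) for subsets and co-detection. Ratios were tested on simulated data. No doublet caller was run; cells of very high UMI count were left out in an alternative. The members, gene lists and marker lists were chosen with earlier results of these data known. Named genes were all members, up to 3 called genes of each list with the highest and the lowest ratios, and the 3 genes most alike to each member, of which 1 is not reported here. Promoters came from RefSeq (GRCm38.p6), where all 5 measured members were matched. Python 3.11.15, numpy 2.4.6, pandas 2.3.3 and scipy 1.17.1 were used.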

Additional observations from a re-analysis of the deposited data

How the results depend on the processing

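The count of members past 2-fold stayed within 1.5 times the main count (5, 3 and 2 at days 2, 5 and 7) under every alternative that could be run. These were the authors' normalized values averaged over cells, thinning, centring on the median gene, other filters on low counts, and leaving out FAPs with myeloid UMIs, very high UMI counts or high mitochondrial shares. Chosen after seeing the data were the FAPs at or below the median myeloid share, subtraction of myeloid RNA at the largest rate, and the label FAPs alone at day 7. Of 119 member values under these settings, 115 kept their direction and 5 crossed 2-fold. Cebpa at day 5 was -1.08 after thinning. Pparg at day 5 was -0.52 without cells with a myeloid UMI, -0.78 without cells of the highest UMI counts and -0.91 at or below the median myeloid share, and at day 7 it was 1.13 without cells with a myeloid UMI. The FAPs without a myeloid UMI held only 2 UMIs of Pparg at day 5 (370 cells) and 4 at day 7 (136 cells). Cebpa at day 7, 0.12 on the log2 scale, was -0.037 after thinning, -0.072 without the cells of highest UMI count, and -0.40 both at or below the median myeloid share and after subtraction; the cause was not tested. At day 2 the range over alternatives was 1.33 to 2.05 for Cebpa and 1.93 to 2.40 for Pparg. FAPs without any myeloid UMI could not be taken at day 2, where there were 0 such cells, and Pparg could not be compared at day 5 after thinning, with 0 UMIs. No paired analysis was possible because each day has 1 matrix and the 2 runs of day 0 are not told apart in it; for the same reason no library could be left out. Depth limits Pparg at day 5 (4 UMIs) and the 36 Pi16 or Dpp4 cells of day 2. Several counts of called genes in the lists moved by over 1.5 times. After thinning, adipocyte genes gave 4 calls at day 2 and 4 at day 7 in place of 9 each, glucocorticoid genes 5 in place of 8 at day 2 and 3 in place of 5 at day 7, lipid droplet genes 4 in place of 2 at day 2 and 3 in place of 1 at day 5, and early activators 4 in place of 2 at day 7. With the authors' normalized values, glucocorticoid genes gave 5 calls at day 2 and 0 in place of 2 at day 5, adipocyte genes 5 at day 7, and lipid droplet genes 2 at day 5. Early activators gave 4 calls at day 7 at or below the median myeloid share and in the label FAPs alone. Under the other settings the lipid droplet count of day 2 was 1 at or below the median myeloid share, the glucocorticoid count of day 5 lay between 0 and 3, and counts of the CEBP and PPAR family lay between 0 and 2.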

Other observations

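In lymphocyte labels with Hsd11b1, other protein-coding genes near it also had UMIs, and these genes were low in FAPs. The levels are sums over a label, so they do not show the genes together in single cells. These genes were picked by position on chromosome 1 after the level of Hsd11b1 in NK/T cells had been seen. In NK/T cells of day 7, where Hsd11b1 stood at 97.6 cpm (85.0 to 112), Traf3ip3, which lies 20093 bp from Hsd11b1 on the side away from G0s2, stood at 45.2 cpm (36.7 to 55.0), and Lamb3, which lies 21164 bp beyond G0s2, at 31.5 cpm (24.5 to 39.8). G0s2, which lies between Hsd11b1 and Lamb3, stood at 8.67 cpm (5.22 to 13.5) in the same cells. In FAPs of days 0, 2, 5 and 7 Traf3ip3 stood at 0.551, 1.85, 0.686 and 1.80 cpm and Lamb3 at 0.796, 0.326, 1.03 and 0.901 cpm. NK cells of day 5 gave 20.3 cpm of Traf3ip3 (9 UMIs) and 31.5 cpm of Lamb3 (14 UMIs), beside 36.0 cpm of Hsd11b1 (16 UMIs) and 6.76 cpm of G0s2 (3 UMIs). The myeloid markers summed to 5618 cpm in that label.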
